A study of Mus musculus with 8 samples.

Results

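Store-operated calcium entry is the route by which lymphocytes admit calcium after an activating receptor has been engaged, and NFAT is the transcription factor family that this calcium switches on. Open chromatin was described at 9 genes of the route in natural killer (NK) cells of the mouse spleen: the calcium channels Orai1 and Orai2, the sensors Stim1 and Stim2, the inositol trisphosphate (IP3) receptor Itpr1, the calcineurin subunit Ppp3ca, and the factors Nfatc1, Nfatc2 and Nfatc3. They are 9 of 21900 protein-coding genes in the RefSeq table, and all 9 had a linked peak in at least 2 libraries, as had 14259 genes in all. A peak, a stretch called open by the authors, was linked to a gene when the end of that gene was the nearest protein-coding gene end to the midpoint of the peak, within 50 kb. Overlapping peaks of different libraries (1 bp or more) were joined into one region, and the regions found in 2 or more libraries are called consensus regions. The 9 genes had 98 of the 50044 consensus regions, besides 10 regions called in 1 library only.

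The assay was ATAC-seq, in which a transposase cuts and tags accessible DNA. The mutant group (MUT, genotype HSF1-S303/7A) held 4 mice whose heat shock factor HSF1 has alanine in place of serines 303 and 307, numbered 26, 27, 28 and 29. The other group held 4 mice wild-type for HSF1 (WT), numbered 4, 5, 6 and 7. All mice were at steady state, with no treatment named, and the labels give no strain, age or litter. NK cells were enriched from spleen with DX5 beads and sorted as CD49b+ CD3e- cells, and 200000 cells of each mouse entered the assay. The design asks how open chromatin of NK cells differs between the genotypes, and any other difference between the groups of mice cannot be told apart from the genotype.

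When an activating NK receptor is engaged, phospholipase C gamma makes IP3, and IP3 receptors release calcium from the endoplasmic reticulum. STIM proteins sense the emptied store and open ORAI channels in the plasma membrane. The calcium that enters binds calmodulin, which activates the phosphatase calcineurin, and calcineurin removes phosphates from NFAT proteins so that they enter the nucleus. In NK cells this calcium entry is needed for the release of cytotoxic granules and for cytokine production.

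RefSeq promoter windows (build GRCm38.p6, 250 bases before to 50 bases after a gene start) were at hand for 6 of the 9 genes, in 8 windows. Peaks lay on 7 of these 8 windows in 8 of 8 libraries, and on 35.0% of all 32851 windows. The exception was at Nfatc2, which has 2 windows. The 4 windows below are printed because Orai1 is the gene whose peaks differed between the genotypes, Orai2 is the other channel gene, and the pair at Nfatc2 shows one start of a gene with a called peak and one without. Each reads 5′ to 3′ on the strand of its gene, and capitals mark GGAAA, the core of the NFAT binding motif, on either strand.
Orai1, chr5:123014824-123015123, plus strand: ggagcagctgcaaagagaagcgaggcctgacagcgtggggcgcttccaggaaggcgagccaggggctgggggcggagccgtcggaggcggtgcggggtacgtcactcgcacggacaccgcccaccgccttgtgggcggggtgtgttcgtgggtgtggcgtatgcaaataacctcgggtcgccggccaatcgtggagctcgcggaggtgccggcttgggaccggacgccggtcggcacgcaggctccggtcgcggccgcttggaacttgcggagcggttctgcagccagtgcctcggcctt
Orai2, chr5:136170607-136170906, minus strand: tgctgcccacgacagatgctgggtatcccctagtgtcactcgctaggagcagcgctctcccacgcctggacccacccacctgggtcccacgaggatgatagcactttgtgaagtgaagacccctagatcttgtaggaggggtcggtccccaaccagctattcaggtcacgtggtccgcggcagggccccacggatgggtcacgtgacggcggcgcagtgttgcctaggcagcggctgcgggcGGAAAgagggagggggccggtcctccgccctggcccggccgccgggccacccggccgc
Nfatc2 outer start, chr2:168601608-168601907, minus strand: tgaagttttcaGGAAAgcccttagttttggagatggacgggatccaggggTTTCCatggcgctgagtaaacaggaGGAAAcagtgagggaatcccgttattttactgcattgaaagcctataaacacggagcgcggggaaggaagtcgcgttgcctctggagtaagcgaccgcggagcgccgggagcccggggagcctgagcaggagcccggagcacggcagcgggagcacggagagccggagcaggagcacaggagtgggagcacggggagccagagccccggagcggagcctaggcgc
Nfatc2 inner start, chr2:168590316-168590615, minus strand: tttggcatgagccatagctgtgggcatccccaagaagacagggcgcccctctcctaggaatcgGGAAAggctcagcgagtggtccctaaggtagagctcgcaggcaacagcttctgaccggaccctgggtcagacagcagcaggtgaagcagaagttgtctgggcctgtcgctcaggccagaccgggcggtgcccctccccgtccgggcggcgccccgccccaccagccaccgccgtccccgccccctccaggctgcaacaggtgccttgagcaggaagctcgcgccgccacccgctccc

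The windows of Orai1 and Orai2 were covered over all 300 bases in every library. The outer Nfatc2 start had 0 bases of peak in 8 of 8 libraries. At the inner Nfatc2 start, peaks covered 249, 300, 300 and 265 of the 300 bases in MUT, against 244, 243, 271 and 266 in WT. GGAAA occurred 0 times in the Orai1 window, 1 time in the Orai2 window, 3 times in the outer and 1 time in the inner Nfatc2 window; on either strand it is present in 61.3% of all windows. Of the other motifs searched on both strands, TGANTCA (AP-1, in 7.81% of all windows), CCGGAAG (ETS, 8.86%), GAANNTTC (a short form of the heat shock element, 7.86%), TGTGGT (RUNX, 16.8%) and AGGTGT (T-box, 13.7%) were in none of the 8 windows. CCGGAAG shares the letters GGAA with GGAAA, and a match or its absence describes only the letters of the window. The 8 windows had a G and C content of 48.7% to 78.7%, against a median of 52.7% over all windows.

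The MUT lists held 44333 to 49627 peaks and the WT lists 42695 to 46102. Of these, 94, 99, 96 and 95 peaks were linked to the 9 genes in MUT 26, 27, 28 and 29, against 94, 91, 93 and 83 in WT 4, 5, 6 and 7. Read depth is unknown, since the lists hold no counts, so a missing peak is a peak that was not called. The sort was checked on marker genes: 8 of 8 NK cell markers had a peak within 1 kb of an end in all libraries. Of 6 T cell markers 4 had one, among them Cd3e, Cd3d and Cd3g, while Cd4 and Cd8a had no linked peak. Of 6 B cell markers 0, of 6 myeloid and dendritic cell markers 2 and of 6 erythroid and platelet markers 1 had one in all libraries. Among the 8 NK cell markers 1 passed the limma test, where 0.231% of all genes passed as lower in MUT: Klrb1c, which encodes NK1.1, fell in MUT (5360 ± 213 bp in MUT and 6347 ± 259 bp in WT; limma, adjusted p = 0.0315). In scaled length the groups of 3 of the 8 NK cell markers (37.5%) did not overlap, against 6.76% of all genes tested. Besides Klrb1c these were Ncr1 and Eomes, which did not pass. Ncr1 had 3448 ± 377 bp in MUT and 2855 ± 198 bp in WT (limma, adjusted p = 0.278). Eomes had 3606 ± 351 bp in MUT and 3766 ± 177 bp in WT (limma, adjusted p = 0.378). The summed length of the 8 was 34940 to 39018 bp in MUT and 35663 to 38543 bp in WT.

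Orai1 (chr5:123015074-123030452, mm10), which encodes the pore of the calcium release-activated channel of lymphocytes, was the gene that differed. Its linked peaks covered 1726, 1631, 1976 and 1953 bp in MUT 26, 27, 28 and 29, against 1042, 1004, 1206 and 1001 bp in WT 4, 5, 6 and 7. The groups did not overlap, and every MUT library lay above every WT library. The means were 1822 ± 170 bp in MUT and 1063 ± 97.0 bp in WT (SD, n = 4 each), a ratio of 1.71. Linked length rose in MUT by log2 0.64 (SE 0.0976, 95% interval 0.42 to 0.87; limma over 14259 genes, adjusted p = 0.0335), on the log2(bp + 200) scale and after each library was scaled to the median total. Of the 9 genes 1 passed in this direction, where 0.442% of all genes tested did.

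**Figure D1:**
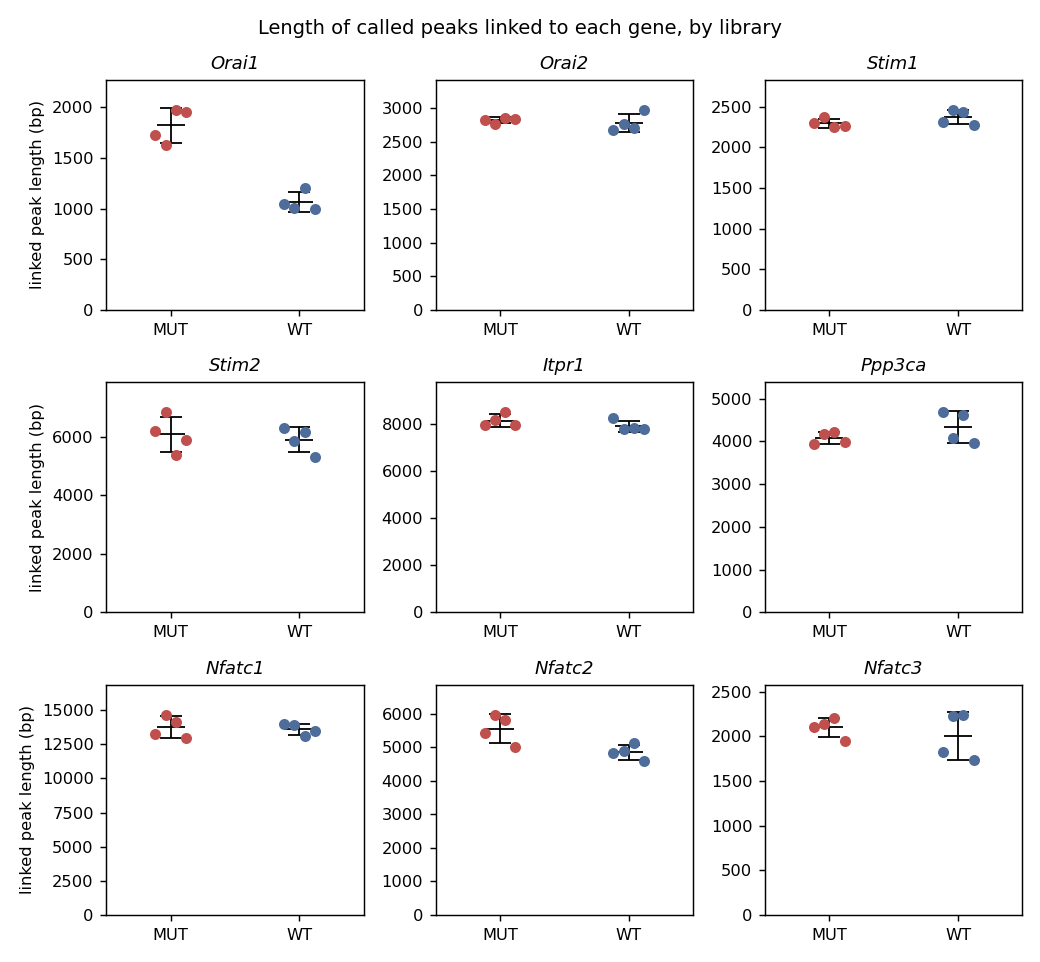
Linked peak length in bp (y axis, from 0) of each of the 9 genes in the 4 MUT and 4 WT libraries; points are libraries and bars the mean and SD. At Orai1 the MUT libraries sit between 1631 and 1976 bp and the WT libraries between 1001 and 1206 bp, while at the other 8 genes the unscaled values of the groups overlap.

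Most of the Orai1 difference lay in a region inside the gene towards its far end. A smaller part lay close to the start, in MUT 28 and MUT 29 only. The region at the start (chr5:123014697-123015771) had 1048, 1023, 1069 and 1020 bp in MUT, against 1042, 1004, 1006 and 1001 bp in WT (limma on width, log2 0.0093, adjusted p = 0.952). A second region (chr5:123025056-123025750), inside the gene and 5.05 kb from its far end, had 678, 608, 693 and 648 bp in MUT, against 0, 0, 200 and 0 bp in WT. It was called in 4 of 4 MUT libraries and in WT 6 alone (Fisher's exact test, unadjusted p = 0.143). The last region (chr5:123015882-123016166), 0.95 kb inside the start, was called in MUT 28 and MUT 29 with 214 and 285 bp, and in 0 of 4 WT libraries. It begins shortly after the region at the start ends. The next protein-coding gene to the region inside Orai1 is Morn3, with its nearest end 8.04 kb away.

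**Figure D2:**
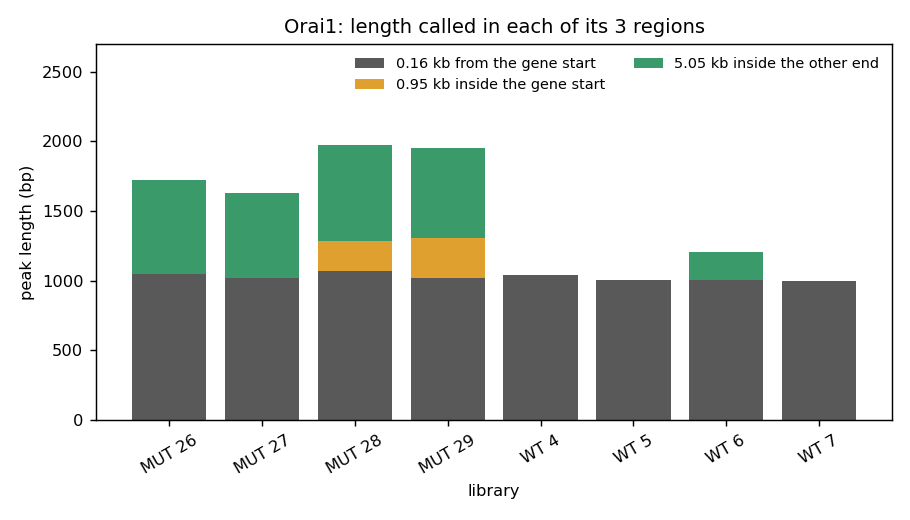
Peak length in bp (stacked, y axis from 0) called in each of the 3 regions of Orai1 in each library, MUT left and WT right. The part at the gene start is between 1001 and 1069 bp in all 8 libraries, and the part 5.05 kb inside the far end is 608 to 693 bp in MUT and is called in WT 6 alone among WT.

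The regions behind the Orai1 call were weak by the authors' score, an unnamed value per peak that is used here only to rank peaks within a list. The region inside the gene stood at percentiles 15.6, 16.3, 22.1 and 11.2 of the MUT lists, against 9.90 of the list of WT 6. With the upper 50% of each list the Orai1 difference was log2 0.014 (limma, adjusted p = 0.990), and the adjusted p was 0.0955, 0.0942 or 0.0569 without MUT 26, 28 or 29 and 0.0939, 0.0929 or 0.0845 without WT 4, 5 or 7. With equal numbers of peaks in every list the Orai1 difference was log2 0.63 (limma, adjusted p = 0.0233). The T cell markers summed to 3909 to 5240 bp of linked peaks in MUT and 3494 to 3895 bp in WT (0 of 4 tested passed), and the B cell markers to 1947 to 3247 bp in MUT and 1654 to 2323 bp in WT (0 of 4 tested passed). Myeloid and dendritic cell markers summed to 1534 to 2600 bp in MUT and 1267 to 1922 bp in WT, and erythroid and platelet markers to 2373 to 2907 bp in MUT and 2367 to 2924 bp in WT (0 of 4 passed in each). Cd4, Cd8a, Cd79a, Ms4a1, Lyz2, Zbtb46, Hbb-bs and Gp9 had no linked peak in at least 2 libraries. The part of other cells in the Orai1 result was not tested.

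Orai2 (chr5:136147456-136170697) encodes a second ORAI channel subunit, known to form mixed channels with ORAI1. It had 2821, 2766, 2859 and 2839 bp in MUT, against 2679, 2770, 2709 and 2975 bp in WT, and the groups overlapped. The difference was log2 -0.018 (95% interval -0.16 to 0.13; limma, adjusted p = 0.941). All 3 of its regions were called in 8 of 8 libraries: one over the gene start (chr5:136170068-136171692, mean percentile 65.4), one 1.8 kb inside the other end and one 0.378 kb beyond that end. The intervals of the 2 channel genes do not meet, although the difference between genes was not itself tested.

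Stim1 (chr7:102261514-102437319) encodes the main calcium sensor of the endoplasmic reticulum. Its linked length was 2294, 2372, 2255 and 2264 bp in MUT, against 2312, 2462, 2433 and 2278 bp in WT (log2 -0.079, 95% interval -0.18 to 0.025; limma, adjusted p = 0.583). Most of it was 1 broad region (chr7:102266404-102268258) that covers the whole promoter window and averaged 1730 bp in MUT and 1794 bp in WT. All 3 Stim1 regions were called in 8 of 8 libraries, and the groups overlapped.

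Stim2 (chr5:53998523-54121057), the sensor that responds to small losses of stored calcium, had 6203, 6830, 5369 and 5880 bp in MUT, against 6288, 5851, 6146 and 5307 bp in WT. The difference was log2 -0.00029 (95% interval -0.16 to 0.16; limma, adjusted p = 1.0). Of its 12 consensus regions 10 were called in 8 of 8 libraries. The strongest lay inside the gene, 10.2 kb from its far end (chr5:54110597-54111215), at percentiles 98.7, 96.1, 97.8 and 97.6 in MUT and 97.4, 94.1, 96.0 and 95.1 in WT. That region was stronger within its lists than the one at the Stim2 start, which had a mean percentile of 57.2. Its width was 486, 615, 525 and 598 bp in MUT, against 449, 462, 459 and 495 bp in WT (limma on width, log2 0.22, adjusted p = 0.469).

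Itpr1 (chr6:108213083-108551116), which encodes an IP3 receptor of the endoplasmic reticulum, held the 1 region among the 98 that was called in 4 of 4 libraries of one genotype and 0 of 4 of the other. This region (chr6:108222971-108223250), inside the gene and 10.0 kb from its lower-coordinate end, had 261, 205, 205 and 228 bp in MUT, at percentiles 45.2, 19.4, 25.1 and 27.6, against 0 bp in each WT library. Fisher's exact test gave an unadjusted p of 0.0286, the smallest that 4 against 4 allows, so no region can pass an adjustment over 50044. Of all consensus regions 0.583% were called in MUT only and 0.178% in WT only; among the 98 these were 1 and 0 regions, and the first share is close to the background.

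As a whole Itpr1 did not differ. It had 7964, 8179, 8501 and 7945 bp in MUT, against 8259, 7777, 7812 and 7799 bp in WT (log2 0.0027, 95% interval -0.093 to 0.098; limma, adjusted p = 0.991). Its 19 consensus regions gathered near the higher-coordinate end, with 14 called in 8 of 8 libraries. The region on its lower-coordinate end (chr6:108212667-108213477) was among the strongest of all lists, at percentiles of 95.1 to 98.5.

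Near the higher-coordinate end of Itpr1, 3 successive regions had width differences of both signs. At chr6:108531035-108532345 the widths were 1282, 1150, 1125 and 1167 bp in MUT, against 902, 979, 1014 and 872 bp in WT. At chr6:108535302-108535643 they were 218, 234, 263 and 237 bp in MUT, against 294, 332, 289 and 280 bp in WT. At chr6:108536591-108537410 they were 530, 519, 533 and 501 bp in MUT, against 779, 789, 566 and 811 bp in WT. MUT was wider in the first and narrower in the others. The log2 differences, in that order, were 0.3, -0.36 and -0.51 (limma on width over 34461 regions, adjusted p = 0.248, 0.221 and 0.212), so none passed. Without WT 6 the region at chr6:108536591-108537410 did (log2 -0.63; limma, adjusted p = 0.0147). A region nearer the higher-coordinate end (chr6:108548891-108549254) was also narrower in MUT. It had 280 ± 10.1 bp in MUT and 324 ± 20.8 bp in WT (limma on width, adjusted p = 0.3). These regions were chosen for description after their values were seen.

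Ppp3ca (chr3:136669714-136937727) encodes the alpha isoform of the catalytic subunit of calcineurin. It had 3937, 4179, 4222 and 3979 bp in MUT, against 4682, 4076, 4621 and 3963 bp in WT, with overlapping groups (log2 -0.12, 95% interval -0.25 to 0.015; limma, adjusted p = 0.508). Of 8 consensus regions 6 were called in 8 of 8 libraries. The strongest (chr3:136940806-136941596) lay outside the gene, 3.47 kb beyond its higher-coordinate end, at a mean percentile of 83.9, and the region on the lower-coordinate end stood at 80.4.

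Nfatc1 (chromosome 18), which encodes the NFAT factor also known as NFAT2, was the most region-rich of the 9 genes. It ranked 2 of 14259 genes both by linked length and by consensus regions, with 35 regions against a median of 2 per gene. It had 13265, 14674, 14133 and 12954 bp in MUT, against 13995, 13895, 13109 and 13443 bp in WT, and the groups overlapped (log2 -0.025, 95% interval -0.08 to 0.03; limma, adjusted p = 0.757). Of the 35 regions 24 were called in 8 of 8 libraries and 25 lay inside the gene. Its strongest region, at a mean percentile of 77.2, was outside the gene, 25.5 kb from the lower-coordinate end. A region 8.5 kb from that end was nearly as strong, at 77.1, while the region on the higher-coordinate end stood at 25.2.

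The Nfatc1 regions that were not called everywhere were narrow and weakly scored. A region 26.5 kb outside the lower-coordinate end had 248, 273, 262 and 230 bp in MUT, against 0, 0, 201 and 0 bp in WT, at a mean percentile of 12.5. One at 19.9 kb had 216, 309, 218 and 0 bp in MUT, against 0 bp in each WT library, at 9.34. Both lie within Gm41790, a long non-coding RNA gene in the RefSeq table, a class not used for linking. The strong regions 25.5 and 8.5 kb outside the lower-coordinate end lie within it too. Other regions had more WT than MUT libraries: those 34.3, 33.4 and 15.9 kb inside the higher-coordinate end were called in 3 MUT and 4 WT libraries. One at 23.0 kb was called in 2 MUT and 3 WT libraries. The remaining regions not called everywhere had equal numbers or a smaller MUT excess. Inside Nfatc1, a region 28.5 kb from the higher-coordinate end had 604, 616, 599 and 560 bp in MUT, against 653, 653, 647 and 642 bp in WT. MUT was the narrower there, but the width test was not passed (limma, log2 -0.15, adjusted p = 0.248).

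Nfatc2 (chr2:168476410-168601657) encodes NFAT1, a factor held in the cytoplasm of resting lymphocytes until calcineurin acts on it. It had 5434, 5979, 5818 and 5020 bp in MUT, against 4833, 4899, 5134 and 4588 bp in WT. The unscaled values overlap through MUT 29 and WT 6, while the scaled values of the groups did not. The means were 5563 ± 428 bp in MUT and 4864 ± 225 bp in WT (SD, n = 4 each; log2 0.15, SE 0.0344, 95% interval 0.068 to 0.23), and the limma test was not passed (adjusted p = 0.145; unadjusted p = 0.00247). The size depended on which peaks entered: it was log2 0.013 at a linking distance of 10 kb (limma, adjusted p = 0.983), 0.1 with equal numbers of peaks (adjusted p = 0.579), 0.3 in the upper 50% of each list (adjusted p = 0.369) and 0.27 with all peaks inside the gene added (adjusted p = 0.127). In scaled values 2 of the 9 genes had groups that did not overlap, Orai1 and Nfatc2, both higher in MUT, where 3.06% of all genes tested had this pattern in that direction and 6.76% in either.

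The Nfatc2 length was spread over 11 consensus regions, 8 of them called in 8 of 8 libraries. The region on the inner start (chr2:168590143-168591539) had 1267, 1273, 1302 and 1263 bp in MUT, against 1165, 1172, 1304 and 1235 bp in WT. A region inside the gene (chr2:168556078-168556698) had 584, 610, 590 and 566 bp in MUT, against 546, 517, 530 and 535 bp in WT (limma on width, log2 0.11, adjusted p = 0.427). Neither width passed the test. A region 46.6 kb outside the gene (chr2:168429559-168429980) had 403, 391, 410 and 400 bp in MUT, against 354, 355, 362 and 371 bp in WT. Its width did not pass either (limma on width, log2 0.13, adjusted p = 0.554). The strongest Nfatc2 region (chr2:168472838-168473439) lay 3.27 kb outside the end of the gene far from its starts, at a mean percentile of 87.3.

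Nfatc3 (chr8:106058818-106130537) encodes NFAT4. It had 2102, 2142, 2208 and 1954 bp in MUT, against 1826, 2234, 2244 and 1731 bp in WT (log2 0.03, 95% interval -0.15 to 0.21; limma, adjusted p = 0.914). A region of 1500 bp (chr8:106058608-106060107) lay on both of its RefSeq start windows in 8 of 8 libraries. A region beyond its far end (chr8:106133437-106133976) is 3.17 kb from Nfatc3 and 3.39 kb from an end of Esrp2, inside which it lies, so that its link rests on a small difference in distance.

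Levels of different genes were compared per kb of the sequence that is nearest to each gene, which is the stretch where a peak would be linked to it. This stretch was 29.8 kb at Orai1 and 30.9 kb at Orai2, against 195 kb at Stim2 and 200 kb at Ppp3ca. The order of the genes thus depends on its length as well as on the peaks. Regions over 50 kb from any gene end do not enter. Orai2 had 91.3 ± 1.29 bp per kb in MUT and 90.1 ± 4.31 in WT, and Nfatc1 85.7 ± 4.92 in MUT and 84.8 ± 2.56 in WT (SD, n = 4 each); their means stood at percentiles 92.3 and 91.4 of the genes tested. Their ranges overlapped in each genotype. Orai1 followed in MUT with 61.2 ± 5.71 bp per kb, and its range there did not overlap that of any neighbour in the order. In WT Orai1 had 35.7 ± 3.26 and stood below Itpr1 (48.3 ± 1.42) and Nfatc3 (48.2 ± 6.45), whose values were 49.8 ± 1.58 and 50.4 ± 2.58 in MUT and overlapped each other in both genotypes. Nfatc2 (33.4 ± 2.57 in MUT, 29.2 ± 1.35 in WT) and Stim2 (31.2 ± 3.14 in MUT, 30.3 ± 2.23 in WT) overlapped, as did Stim1 (21.3 ± 0.493 in MUT, 22.0 ± 0.833 in WT) and Ppp3ca (20.4 ± 0.711 in MUT, 21.7 ± 1.84 in WT). The median gene had 24.0 bp per kb.

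**Figure D3:**
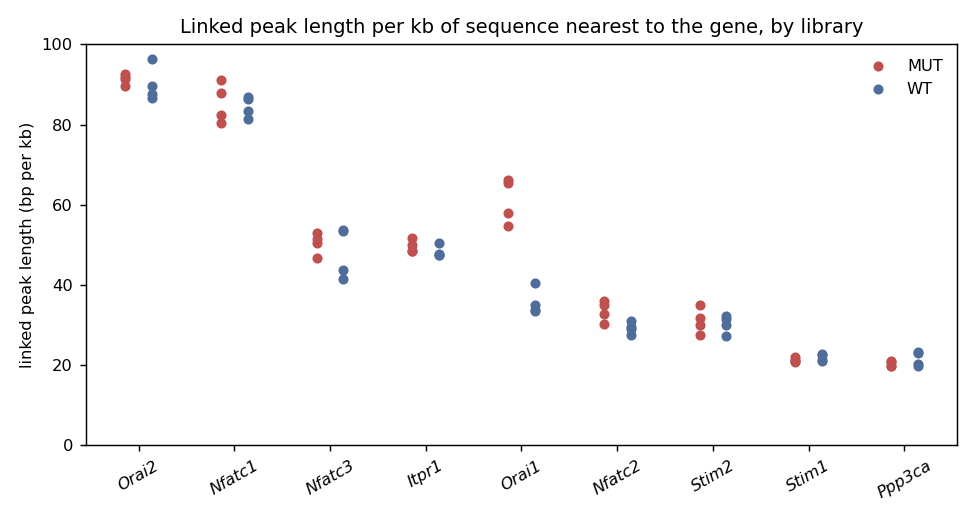
Linked peak length per kb of the sequence nearest to each gene (y axis, bp per kb, from 0), genes ordered by their mean; points are libraries, MUT left and WT right. Orai1 is the one gene whose points separate by genotype, at 54.8 to 66.4 bp per kb in MUT and 33.6 to 40.5 in WT.

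Over all 98 regions, 71 (72.4%) were called in 8 of 8 libraries, against 68.9% of all consensus regions. More MUT than WT libraries had a peak in 15 regions (15.3%, against 14.9% of all consensus regions), and more WT than MUT libraries in 5 (5.1%, against 9.97%). In 4 regions the excess was at least 3 libraries, each time in MUT, where 2.68% of all consensus regions had such an excess, and an excess of at least 3 WT libraries was seen in 0 regions, against 1.06% of all: the region inside Orai1, the one inside Itpr1 and the pair outside Nfatc1. Of the 98 regions 71 lay inside the gene, a share that was not computed over all consensus regions. Within 1 kb of an end lay 10 (10.2%), against 24.6% of all consensus regions. The long genes Nfatc1 and Itpr1 held 35 and 19 of the 98 regions, and only 2 and 1 of the 10. Whether the lower share goes beyond gene length was not tested. The median score percentile of the 98 regions was 37.2, against 43.8 over all consensus regions, and the median width was 477 bp in both.

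**Figure D4:**
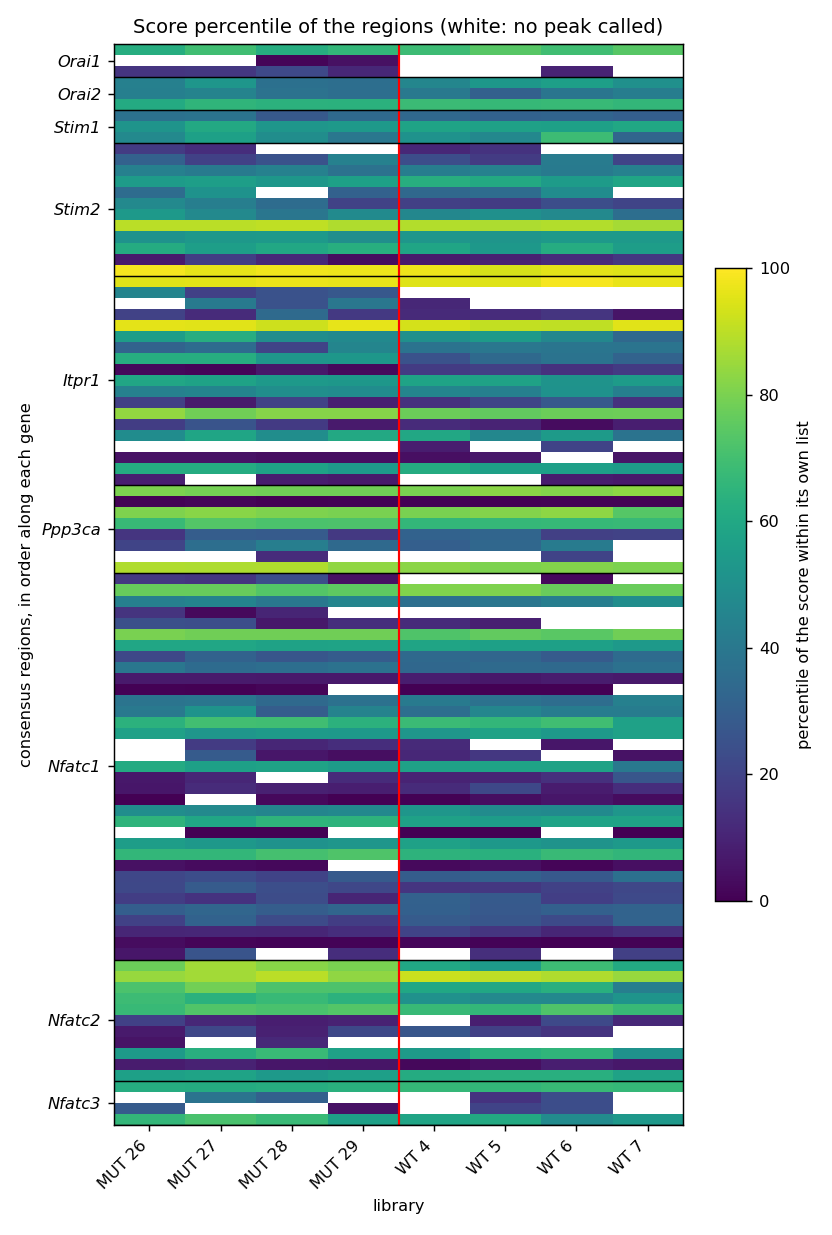
Score percentile within its own list (colour, 0 to 100) of the 98 consensus regions, in rows by gene and in order along the chromosome, for the 4 MUT (left of the red line) and 4 WT libraries; white is no peak called. The white cells fall mostly in rows of low percentile, and the region called in 4 MUT and 0 WT libraries is the second row of Itpr1.

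Of the 71 regions called in all libraries, 0 passed the limma test of width, where 0.0783% of 34461 did. An unadjusted p under 0.05 was reached by 12 of the 71 (16.9%), against 9.69% of all regions tested, and the lowest adjusted p was 0.212, at Itpr1. The median width difference was log2 -0.036 in the 71 regions and -0.018 in all. Ranks in lists of different lengths show no change, so percentiles are given as description and were not tested between the genotypes.

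By numbers of linked peaks, no gene separated the groups. Orai1 had 2, 2, 3 and 3 peaks in MUT, against 1, 1, 2 and 1 in WT (exact permutation test, two-sided, p = 0.0857; the smallest possible is 0.0286). Nfatc1 had 33, 36, 35 and 33 peaks in MUT, against 33, 34, 31 and 30 in WT (exact permutation p = 0.171), and Itpr1 17, 18, 19 and 19 in MUT, against 18, 15, 17 and 17 in WT (exact permutation p = 0.2). The other 6 genes differed by at most 0.5 peaks between the group means, and the numbers overlapped at all 9 genes, where 1.49% of all genes tested did not overlap.

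**Figure D5:**
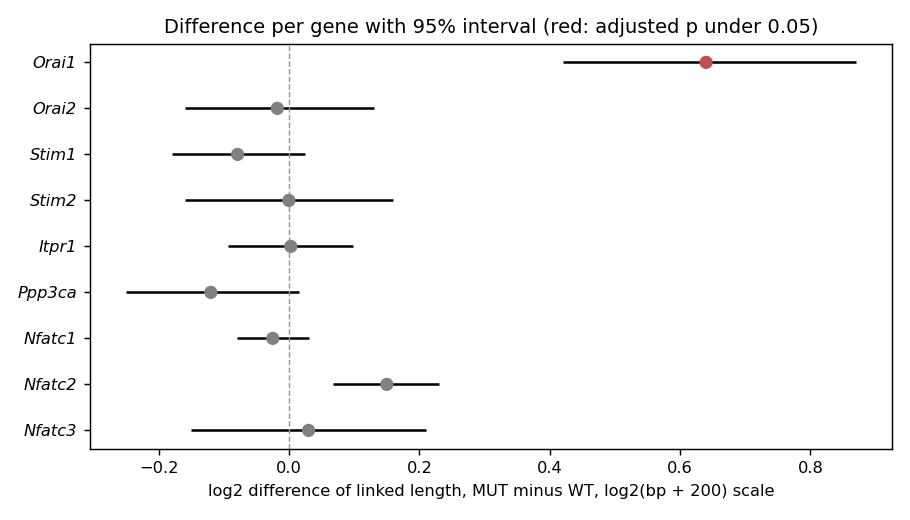
Difference of linked length, MUT minus WT, on the log2(bp + 200) scale (x axis) with its 95% limma interval for each of the 9 genes; red marks an adjusted p under 0.05. Orai1 lies at 0.64, Nfatc2 at 0.15 with an interval above 0 but no call, and the intervals of the other 7 genes include 0.

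Across the 9 genes the median difference was log2 -0.00029 with 4 above 0, against a median of -0.019 and 42.1% above 0 over all genes tested. The differences at Orai1 and Nfatc2 thus stand beside 7 genes whose intervals reach from -0.25 at Ppp3ca to 0.21 at Nfatc3. A missed threshold does not show that such genes are alike in the genotypes.

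Other genes of the route were read from lists of 66 genes in 6 roles, of which 64 could be tested. None of the 64 passed the limma test, where 0.673% of all genes did, and 12 (18.8%) had an unadjusted p under 0.05, against 11.2% of all genes. The median difference of the 64 was log2 -0.0051, with 30 above 0. No other tool was run on linked length.

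Among regulators of channels and sensors (0 of 9 passed), the lowest p was at Stimate, whose product promotes the coupling of STIM1 to ORAI1, with 2120 ± 151 bp in MUT and 2321 ± 153 bp in WT (limma, adjusted p = 0.287). Among IP3 generation and receptor genes (0 of 6) it was at Itpr2, another IP3 receptor, with 4974 ± 601 bp in MUT and 4435 ± 548 bp in WT (limma, adjusted p = 0.652); in the upper 50% of each list it was past the threshold (log2 0.5; limma, adjusted p = 0.0407). Among pumps and other channels 0 of 10 passed.

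Among calcineurin, calmodulin and inhibitor genes (0 of 13 passed), Rcan2, a calcineurin regulator, had 623 ± 132 bp in MUT and 390 ± 49.1 bp in WT (limma, adjusted p = 0.217). Among NFAT family and NFAT kinase genes (0 of 11), Nfatc4 had 860, 1091, 520 and 347 bp in MUT, against 319, 318, 347 and 275 bp in WT (limma, adjusted p = 0.278), and it had no peak within 1 kb of an end. Among genes that NFAT is known to regulate in lymphocytes (0 of 15), the lowest p was at Il2ra, the alpha chain of the interleukin-2 receptor, with 2393 ± 358 bp in MUT and 1895 ± 142 bp in WT (limma, adjusted p = 0.204). The interleukin-2 gene Il2 had 1479, 1780, 1777 and 1276 bp in MUT, against 854, 1046, 720 and 1306 bp in WT (limma, adjusted p = 0.204), and was named after its values were seen. Il2ra and Il2 do not stand for their group: the median difference of its 15 genes was log2 0.00023, with 8 above 0. The summed length of all 66 genes was 168400 to 197205 bp in MUT and 172857 to 177039 bp in WT.

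For each of the 9 genes the gene with the most similar course of scaled length over the 8 libraries was found among 14250 others, as a description. Orai1 was most like Ndrg1 (Pearson r = 0.985), Orai2 like Taf5l (r = 0.985), Stim1 like Cherp (r = 0.979), Stim2 like E2f2 (r = 0.925) and Itpr1 like H3c8 (r = 0.986). Ppp3ca was most like Mtarc1 (r = 0.954), Nfatc1 like Arl6ip5 (r = 0.974), Nfatc2 like Tbc1d9 (r = 0.987) and Nfatc3 like Sohlh1 (r = 0.935). The 8 points share their libraries, and each value is the highest of a search over all other genes.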

How the data were processed

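The authors deposited a separate peak list for each library. Each list gives peak positions and 1 positive score per peak as deposited by the authors, who made it per peak in a column without a header; how the score was computed is not stated, so it served only to rank peaks within a list. Tools named in the submitters' processing notes, without their roles, are Trimmomatic, Bowtie2 (version 2.3.4.1), DESeq2 and DiffBind (version 3.0.12), and the build named is mm10, also called GRCm38. For the peak caller, its threshold, read filters and the transposase shift, the entry is "not given in the sources used here". Depth is unknown, and peak numbers limit the precision.

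Peaks were linked to the nearest end of a protein-coding gene (RefSeq table, GRCm38.p6, without exons). Peak lengths were summed per gene, scaled to the median library total and tested with limma 3.58.1 (trend) in R 4.3.3 on log2(bp + 200), which understates changes at genes with little length. Widths of regions present in all libraries were tested likewise after centring on the library median. P-values were adjusted by Benjamini-Hochberg over all genes or regions (threshold 0.05). Python 3.11.15 and scipy 1.17.1 were used. The fits were also run on simulated normal noise with planted shifts. Such data hold no peaks that are either called or missing, so that run cannot vouch for a call like that of Orai1.

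The members, lists and tests were chosen with earlier results of these data known. Named were the 9 members, member regions called in all libraries of one genotype and none of the other or past the width threshold, pathway genes past the threshold or with the lowest unadjusted p in their role group, the gene with the highest Pearson r to each member, and the region of each member with the highest mean score percentile; other regions and Il2 were chosen after their values were seen. Alternatives were the pseudocount, scaling, linking distance, filter, stricter peak sets, merging and linking rules, and each library left out. The gene that the naming rule picks in 1 role group is not reported here.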

Additional observations from a re-analysis of the deposited data

Results flagged for a closer look

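In groups of 4 libraries, 36 sets of values were examined for a library far from the others, which chance gives in about 1 of 20 groups. WT 4 stood apart with 8259 bp at Itpr1, where the other WT libraries had 7777 to 7812 bp. The other 7 cases were numbers of linked peaks in which 3 libraries tied and 1 differed by 1 peak. These were MUT 29 with 3 and WT 7 with 4 peaks at Stim1, WT 6 with 2 at Orai1, MUT 28 with 8 at Ppp3ca, MUT 26 with 12 and WT 7 with 10 at Nfatc2, and MUT 29 with 4 at Nfatc3.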

How the results depend on the processing

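The Orai1 difference (log2 0.64) stayed past the limma threshold with pseudocounts of 50 and 1000 bp, without scaling, at a linking distance of 10 kb, with equal numbers of peaks, without the filter and with either other linking rule. It was log2 0.014 in the upper 50% of each list, where its weakly scored regions are removed, and 0.58 to 0.72 with 1 library left out, when 6 of 8 fits had an adjusted p above 0.05; the members past the threshold then numbered 0 to 1, and 0 in the upper 50%. Over all genes, 22 to 79 passed with 1 library left out, 41 at 10 kb and 96 with all libraries. Without scaling the median difference of all genes was 0.013, against -0.019, and 63 genes were higher and 19 lower in MUT; with equal numbers of peaks these were 67 and 54, against 63 and 33.

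Differences near 0 changed sign, with none called. Without scaling Orai2 stood at 0.019, Stim2 at 0.038 and Nfatc1 at 0.014. With equal numbers of peaks Orai2 stood at 0.077 and Itpr1 at -0.044, and in the upper 50% Orai2 at 0.033. At 10 kb Stim2 stood at 0.047 and Itpr1 at -0.06. Stim2 was 2.7e-05 with a pseudocount of 1000 bp, and Itpr1 -0.032 with peaks inside the gene added. With 1 library left out the ranges were -0.055 to 0.027 for Orai2, -0.034 to 0.065 for Stim2, -0.022 to 0.038 for Itpr1 and -0.019 to 0.082 for Nfatc3. Without a call or a change of sign, Nfatc2 stood at 0.013 at 10 kb and at 0.3 in the upper 50%, Stim1 stood at -0.19 in the upper 50% and -0.025 with peaks inside the gene added, and Ppp3ca at -0.062 and -0.025 in the same settings. The cause was not tested.

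Pathway genes past the threshold numbered 1 with equal numbers of peaks and 3 in the upper 50% (Dyrk1a, Esyt1 and Itpr2). Regions called in MUT only numbered 2 when a library had to cover 50% of the region, 2 with equal numbers of peaks and 0 at 10 kb, and WT-only regions 1 with equal numbers. The MUT-only regions added by the first 2 settings, at Orai1 and Nfatc1, had 4 MUT and 1 WT libraries in the full lists. That WT-only region (chr6:108535302-108535643) had 4 MUT and 4 WT libraries there. So had the 1 MUT-only region in the upper 50% (chr6:108531035-108532316), which is not the one of the main setting. The members had 42 consensus regions in the upper 50% and 35 at 10 kb, since fewer peaks enter. Widths past the threshold numbered 0 to 1 with 1 library left out, the 1 being a region inside Itpr1 without WT 6.

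In numbers of linked peaks, MUT minus WT, Orai1 ranged from 1.08 to 1.5 with 1 library left out (exact permutation p = 0.0286 without WT 6) and Nfatc3 from -0.083 to 0.58. Stim1, Itpr1 and Nfatc1 each stood at -0.25 with equal numbers of peaks, as did Stim1 in the upper 50%. No paired analysis was possible because the genotypes share no replicate numbers. Peak lists hold no read depth, so a peak just under the calling threshold cannot be told from closed chromatin.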

Other observations

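Long genes of the route also held regions over 50 kb from any gene end, which the linking rule leaves out. There were 31 such consensus regions inside the 9 genes, 16 of them in Itpr1, 8 in Ppp3ca, 4 in Stim1, 2 in Nfatc2 and 1 in Stim2. Of the 31, 19 were called in 8 of 8 libraries, 0 in MUT only and 0 in WT only. All 4 of Stim1 were called in every library, and the one at chr7:102317762-102318216 stood at a mean percentile of 98.7, above each region linked to Stim1.

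Of the 31, 6 were called in more MUT than WT libraries (19.4%, against 14.9% of all consensus regions) and 5 in more WT than MUT libraries (16.1%, against 9.97%). The 5 with more WT libraries were all in Itpr1. Both regions deep inside Nfatc2 were among the 6, and they are given here as values, chosen after these were seen. At chr2:168531435-168531835 the lengths were 383, 210, 253 and 225 bp in MUT, against 0, 0, 216 and 0 bp in WT. At chr2:168539539-168540194 they were 585, 488, 497 and 358 bp in MUT, against 0, 274, 421 and 0 bp in WT.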
